A study of Mus musculus with 4 samples.

Results

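ILC2 subcluster 5 is one of 10 clusters into which the study divided the group 2 innate lymphoid cells (ILC2s) of mouse liver and lung, and it is described here by the rows that the marker table of these clusters gives for it. Each row, called a listing here, is 1 gene in 1 subcluster, with the share of the subcluster's cells in which the gene was found and the share of all other ILC2s. Subcluster 5 had 1000 of the 3745 listings, and the table held 2629 genes in all. The gene was found in a larger share of subcluster 5 than of the other ILC2s in 22 listings, which is 0.837% of the genes of the table, and in a smaller share in 978 listings, which is 37.2% of them. The subcluster was made by grouping cells on their expression, so these values describe it, and no test was made of them.

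The cells came from wild-type BALB/c mice, 8 weeks old, injected intraperitoneally once a day for 5 days with PBS as the control or with the ILC2-activating cytokine rIL-33 (recombinant IL-33) at a dose of 0.5 µg. The groups were PBS lung and PBS liver and, after the cytokine, rIL-33 lung and rIL-33 liver. Of the 4 libraries 1 belonged to each group, and it pooled the tissue of several mice. Live cells were sorted as lineage-negative (among others without surface CD3e and TCRb) and positive for CD127, Thy1 and the IL-33 receptor ST2, and profiled by droplet-based sequencing of transcript 3′ ends. Cells with markers of other lineages, *Cd3* among them, were set aside by the authors before the remaining ILC2s were clustered again. The values used here combined the 4 libraries, so neither the treatment nor the organ could be compared, no value had a replicate, and the tables gave neither the depth nor the number of cells behind a value.

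ILC2s are tissue lymphocytes that develop without a rearranged antigen receptor and that answer epithelial alarm signals such as IL-33 with type 2 cytokines. T cells carry an antigen receptor instead, made of alpha and beta or of gamma and delta chains, which signals through the CD3 proteins. The kinases Lck and Txk act next to that receptor, and CD28 is the co-stimulatory receptor beside it. ILCs and T cells share progenitors and many transcription factors, and transcripts of some receptor chains are known in ILCs.

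The tables give no number of cells, so the size of each subcluster was solved from the shares. For any gene listed for several subclusters, the share in all ILC2s must come out the same from each listing, which fixes the sizes. Subcluster 5 held 3.87% ± 0.00964 (least-squares SE, in percentage points) of the ILC2s, from 768 genes with 1884 listings. The residuals had an SD of 0.000266 as a share of cells, against 0.000289 for rounding to 3 decimals alone. The error covers rounding, not variation between animals.

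The 4 genes given as markers of the subcluster, *Ms4a4b*, *Txk*, *Trdc* and *Cd3e*, were all found in a larger share of it than of the other ILC2s. *Ms4a4b*, a four-span membrane protein of T cells, was found in 49.6% of the subcluster and in 10.2% of the other ILC2s. *Txk*, a kinase of the Tec family, was found in 42.8% against 17.5%. *Cd3e*, the CD3 epsilon chain, was found in 32.0% against 4.7%, and *Trdc*, the constant region of the receptor delta chain, in 25.6% against 7.0%. None of the 22 genes with a larger share reached 50% of the subcluster's cells. The table gives each gene on its own, so whether the same cells held *Cd3e* and *Trdc* could not be read. Of the T cell receptor and CD3 list, *Trbc2*, *Tcrg-C1* and *Tcrg-C4* were listed for other subclusters only, and *Trac*, *Cd3d* and *Cd247* were listed for none. The subcluster is therefore called by its number and not by a cell type.

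The promoters of *Ms4a4b*, *Cd3e* and *Cxcr3* are shown here, because these genes had the 3 largest ratios of shares among those matched to a promoter (*Cd28* and *Trdc* were not). They cover 250 bases before to 50 bases after the start in RefSeq (GRCm38.p6), read 5′ to 3′ on the strand of the gene, at chr19:11443308-11443607 (plus strand) for *Ms4a4b*, chr9:45009562-45009861 (minus strand) for *Cd3e* and chrX:101734098-101734397 (minus strand) for *Cxcr3*. Capitals mark the matches on either strand to 6 short motifs. TGTGGT is a motif of RUNX factors, which act in T cell and ILC development. CAGGAAG is a motif of ETS factors, common in lymphocyte genes, and they also bind the variant CCGGAAG. The motif AGATAA is known for GATA factors such as GATA3, the motif TGANTCA for AP-1, and the motif TATAAA for the TATA box.
Ms4a4b: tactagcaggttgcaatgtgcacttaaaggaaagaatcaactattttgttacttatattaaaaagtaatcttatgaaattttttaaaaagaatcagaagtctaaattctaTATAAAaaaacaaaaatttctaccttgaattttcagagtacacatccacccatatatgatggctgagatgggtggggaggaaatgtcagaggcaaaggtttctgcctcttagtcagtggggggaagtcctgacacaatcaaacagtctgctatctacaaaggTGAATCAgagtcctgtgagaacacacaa
Cd3e: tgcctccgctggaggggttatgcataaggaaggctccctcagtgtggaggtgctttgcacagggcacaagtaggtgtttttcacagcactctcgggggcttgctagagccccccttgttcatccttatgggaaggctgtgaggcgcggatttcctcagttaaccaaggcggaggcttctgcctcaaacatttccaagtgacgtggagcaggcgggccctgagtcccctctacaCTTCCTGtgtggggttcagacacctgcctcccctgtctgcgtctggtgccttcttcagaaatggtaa
Cxcr3: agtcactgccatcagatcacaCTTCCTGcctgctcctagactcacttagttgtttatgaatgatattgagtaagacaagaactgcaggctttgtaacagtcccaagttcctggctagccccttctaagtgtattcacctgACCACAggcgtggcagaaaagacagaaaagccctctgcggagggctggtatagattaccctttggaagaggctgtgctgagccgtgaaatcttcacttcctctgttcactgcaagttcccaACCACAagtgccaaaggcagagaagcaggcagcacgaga
The *Ms4a4b* promoter held 0 CpG dinucleotides, 1 TATAAA and 1 TGANTCA. The *Cd3e* promoter held 8 CpG and 1 CAGGAAG (read on the other strand as CTTCCTG), and the *Cxcr3* promoter held 4 CpG, 1 CAGGAAG and 2 TGTGGT (as ACCACA). RefSeq promoters were given for 18 of the 22 genes, 26 promoters in all, with a median of 6 CpG (quartiles 4 and 11). Their median was close to the 7 of all 32851 promoters, whereas the 1032 promoters of genes with a smaller share had a median of 23 and the 1674 promoters of genes listed only for other subclusters had 21. CAGGAAG was in 8 of the 26 promoters (30.8%), in 13.8% of those of genes with a smaller share and in 13.3% of all promoters. TGTGGT was in 6 (23.1%), against 10.7% and 16.8%, and CCGGAAG was in 0, against 16.3% and 8.86%. AGATAA was in 3 (11.5%), against 6.59% and 11.2%. TGANTCA was in 1 (3.85%), against 3.88% and 7.81%, and TATAAA was in 1 (3.85%), against 6.11% and 13.6%. With 26 promoters, and several from the same gene, these shares are descriptions of letters in a window and say nothing of a bound factor.

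The 22 genes with a larger share ranged from *Cxcr3*, with a ratio of 9.52 between both shares, to *Lncpint*, with 1.01, and the median ratio was 1.40. The median difference was 9.6 percentage points, with a range of 0.4 to 39.4, and 11 of the 22 differed by at least 10 points. Of the 22 genes, 8 were listed for no other subcluster (*Cd3e*, *Cxcr3*, *Cd28*, *Lyst*, *Trdc*, *Satb1*, *Samd9l* and *Lncpint*).

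**Figure D1:**
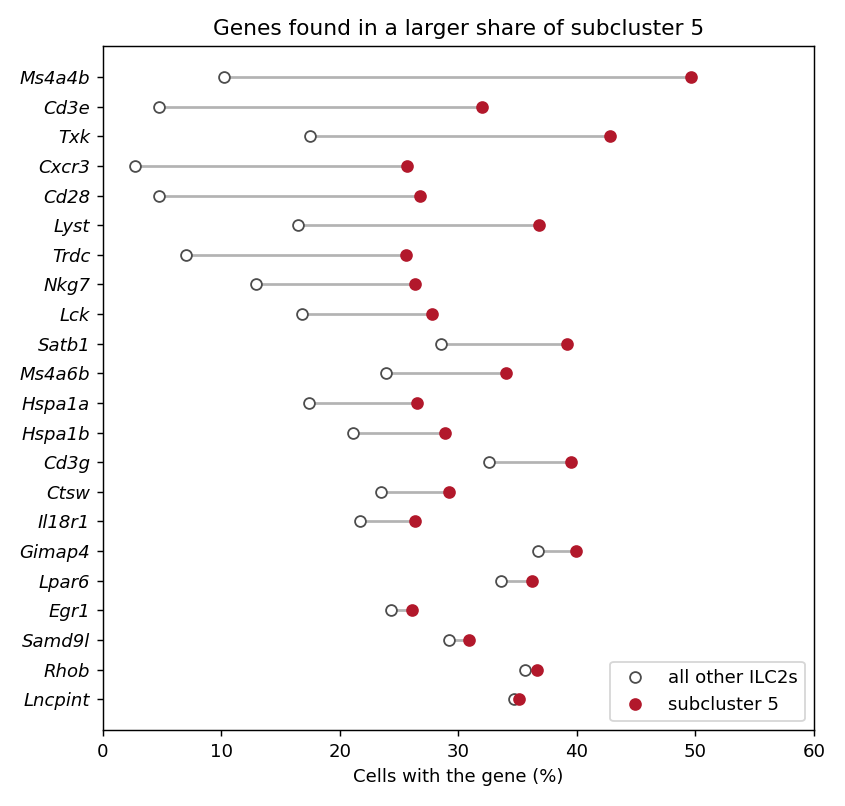
Each row is 1 of the 22 genes found in a larger share of subcluster 5, with the percentage of its cells that had the gene and the percentage of all other ILC2s on the horizontal axis. The distance between both points narrows from *Ms4a4b* (49.6% and 10.2%) to *Lncpint* (35.1% and 34.7%), and the points of the subcluster lie between 25.6% and 49.6%.

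Receptor and CD3 genes went in both directions. *Cd3e* (GRCm38 chromosome 9, 44998740 to 45009627, minus strand, protein-coding) had a ratio of 6.81. From the solved size, 21.5% of all *Cd3e*-positive ILC2s lay in this subcluster, which held 3.87% of the cells. *Cd3g*, the CD3 gamma chain encoded 18.3 kb away on the same strand, differed far less, at 39.5% against 32.6%, and was found in 46.1% of subcluster 6. *Trdc* (chromosome 14, 54142851 to 54148868, plus strand, a constant-region gene) had a ratio of 3.66, and 12.8% of the *Trdc*-positive ILC2s lay in the subcluster. *Trbc1*, a constant region of the receptor beta chain, went the other way, at 45.0% of the subcluster against 81.0% of the other ILC2s.

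*Cd28* (chromosome 1, 60716800 to 60773359, plus strand) was found in 26.8% against 4.7%, a ratio of 5.70, with 18.7% of all positive ILC2s in the subcluster. *Txk* (chromosome 5, 72695978 to 72752777, minus strand) had a ratio of 2.45, and *Lck*, the kinase that phosphorylates CD3 chains, was found in 27.8% against 16.8%. Of the 17 members of the receptor signalling list in the table, 3 had a larger share, 8 (47.1%) a smaller share, and 6 were listed for other subclusters only. Over all genes of the table the corresponding shares were 0.837% and 37.2%, so the 8 are near the background. The 8 were *Fyn*, a kinase related to Lck (20.2% against 50.1%), *Lcp2*, the adaptor SLP-76 (27.8% against 66.5%), *Grap2*, an adaptor that binds it (26.3% against 45.5%), *Nfatc3* (18.8% against 45.6%), *Dgka* (18.0% against 44.0%), *Inpp5d*, the phosphatase SHIP-1 (23.2% against 55.3%), *Ptpn22* (38.4% against 68.1%) and *Ptprc*, which encodes CD45 (91.7% against 98.1%).

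*Cxcr3* (chromosome X, 101731535 to 101734269, minus strand), a chemokine receptor of type 1 lymphocytes, had the largest ratio, at 25.7% against 2.7% of the other ILC2s. Of all *Cxcr3*-positive ILC2s, 27.7% lay in the subcluster. *Lyst*, which encodes a regulator of lysosome traffic, was found in 36.8% against 16.5%, *Nkg7*, a granule membrane protein, in 26.3% against 12.9%, and *Ctsw*, a protease of cytotoxic lymphocytes, in 29.2% against 23.5%. Of the 23 genes of the NK cell and ILC1 list, 6 were in the table, and *Nkg7* and *Ctsw* were the only ones listed for the subcluster. These 2 of 6 stand against 0.837% of all genes of the table with a larger share. The other 4 in the table, *Gzma*, *Ccl5*, *Fcer1g* and *Tyrobp*, were listed for other subclusters only.

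Among the membrane families, *Ms4a4b* (chromosome 19, 11443553 to 11467055, plus strand) had a ratio of 4.86, and its neighbour *Ms4a6b*, 49.5 kb away, was found in 34.0% against 23.9%. *Ms4a4b* was the gene with the largest difference, and 16.4% of the *Ms4a4b*-positive ILC2s lay in the subcluster. The GTPase genes of the GIMAP family, which act in lymphocyte survival, differed among themselves. *Gimap4* was found in 39.9% against 36.7%, whereas *Gimap3* (65.3% against 81.7%), *Gimap7* (24.6% against 39.8%) and *Gimap9* (25.6% against 43.7%) were found in a smaller share.

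*Satb1*, a chromatin organizer needed in T cell development, was found in 39.2% against 28.5%, and *Il18r1*, a receptor for IL-18, in 26.3% against 21.7%. The heat shock genes *Hspa1a* (26.5% against 17.4%) and *Hspa1b* (28.9% against 21.1%) are near-identical copies 9.95 kb apart, so reads may be split between them and each value is uncertain. *Egr1*, an immediate early gene, was found in 26.1% against 24.3%. The remaining genes stood near equality. *Lpar6* was found in 36.2% against 33.6%, *Samd9l* in 30.9% against 29.2%, *Rhob* in 36.6% against 35.6% and the non-coding *Lncpint* in 35.1% against 34.7%. On the other side of the limit the nearest were *Cd226* (43.4% against 43.7%) and *Il2rb* (37.1% against 39.1%).

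The other 14 of the 22 genes were also listed for other subclusters, in 23 pairs of a gene and a subcluster. In 21 of these pairs the other subcluster had the higher share. The exceptions were *Ms4a4b*, found in 25.6% of subcluster 4, and *Txk*, found in 42.4% of subcluster 4, within 0.4 percentage points of subcluster 5. Subcluster 4 shared 6 of the genes, with *Lck* in 40.3%, *Ctsw* in 40%, *Nkg7* in 30.5% and *Gimap4* in 71.6% of its cells. Subcluster 7 shared 5, with *Txk* in 45.0% and *Nkg7* in 40%. Larger shares of *Cd3e*, *Cxcr3*, *Cd28* and *Trdc* were thus listed for subcluster 5 and for none of the other 9, while *Txk* was found about as widely in subclusters 4 and 7, and *Nkg7* and *Ctsw* more widely there. A raised share of *Cd3e*, *Cxcr3*, *Cd28* or *Trdc* in another subcluster may have stayed under the minimum share of the listings. Whether these genes are restricted to subcluster 5 therefore cannot be read from the listings.

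The other lineages were checked through marker lists. Of the ILC2 core list, 20 members were in the table, and subcluster 5 listed 2 of them, *Il18r1* with a larger share and the chemokine receptor *Ccr8* with a smaller one (12.5% against 34.5%). Each is 1 of 20 (5.00%), against 0.837% and 37.2% of all genes of the table. *Gata3*, *Il1rl1*, *Il13*, *Il5* and *Areg* were listed for other subclusters only. A gene that is not listed may be lower in the subcluster, may not differ from the other ILC2s or may not have been tested, so the loss of these genes cannot be read from their absence. Both B cell genes in the table (*Cd79b* and *H2-Ab1*) were listed for other subclusters only. Of the endothelial list *Pecam1* was found in 8.6% against 28.0%. No gene of the myeloid, basophil and mast cell, hepatocyte, lung epithelium or erythrocyte lists was in the table for any subcluster.

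The smaller shares made up 97.8% of the listings of subcluster 5. Among the other subclusters, subcluster 0 came nearest, with 109 of 300 listings (36.3%), followed by subcluster 3 with 14 of 237 (5.91%) and subcluster 7 with 1 of 270 (0.370%). Subclusters 1, 2, 4, 6, 8 and 9 had 0, including subcluster 4 with 802 listings. The lists were made with Seurat's FindAllMarkers function, which compares the average normalized expression of genes and not only the share of cells. That average was not used here, so a smaller share of cells should not be read as a lower average. Its direction is not given here, and genes with a smaller share may be higher or lower on average in subcluster 5. The depth of each cell is not in the tables, so the shares could not be set at an equal depth and its part was not tested.

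**Figure D2:**
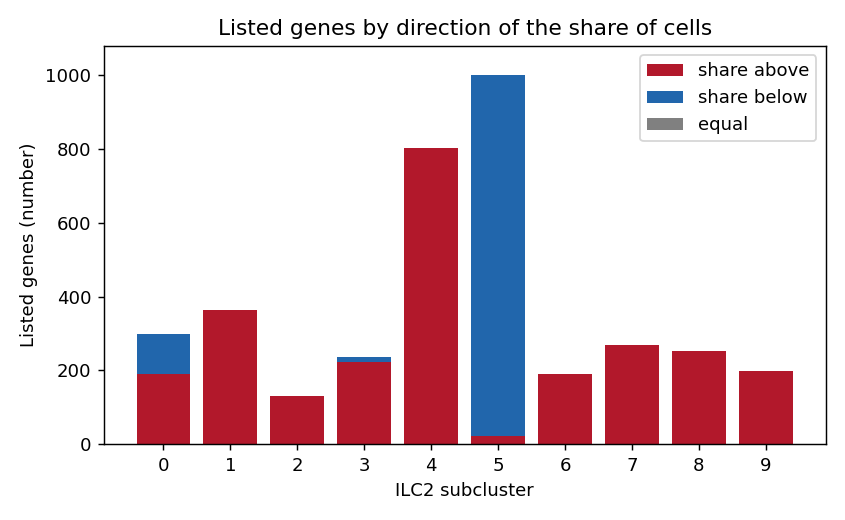
Bars give the number of listed genes of each ILC2 subcluster, divided into genes found in a larger, a smaller or an equal share of its cells. Subcluster 5 has 978 genes with a smaller share, subcluster 0 has 109, and 6 subclusters have 0.

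Most of the 978 genes were found in less than 50% as large a share of subcluster 5 as of the other ILC2s. The ratio of both shares ran from 0.288 to 0.993, with a median of 0.450 and quartiles of 0.389 and 0.523, and 663 genes (67.8%) had a ratio under 0.5. The median gene was found in 18.4% of the subcluster and the median share in the other ILC2s was 40.5%. The median ratio was similar for genes found in up to 60% of the other ILC2s and higher for more widely found genes. It was 0.425 over 188 genes found in up to 30% of the other ILC2s, 0.422 over 297 genes between 30% and 40%, 0.448 over 183 genes between 40% and 50%, and 0.446 over 121 genes between 50% and 60%. It was 0.505 over 143 genes between 60% and 80% and 0.692 over the 46 genes above 80%.

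**Figure D3:**
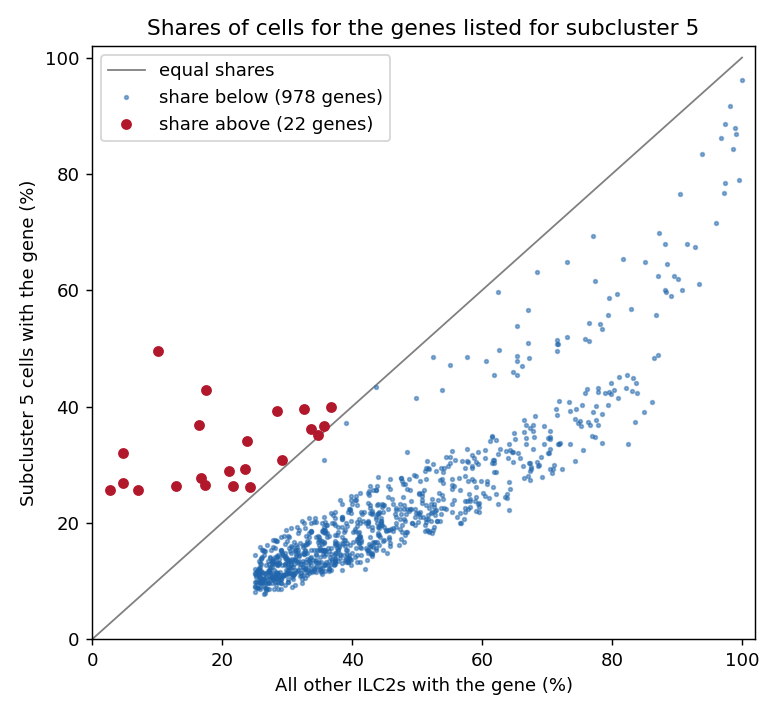
Each point is 1 of the 1000 genes listed for subcluster 5, with the percentage of all other ILC2s that had it on the horizontal axis and the percentage of the subcluster's cells on the vertical axis. The 22 genes above the line of equality lie below 50% on both axes, and most of the 978 genes below it follow a band with a median ratio of 0.450, with fewer genes between that band and the line.

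Genes found in 50% to 80% of the other ILC2s, 264 in all, fell mostly into one band. Of these, 231 had a ratio between 0.3 and 0.6, 6 had a ratio between 0.6 and 0.7, and 27 had a ratio of 0.7 or more, with these limits set after the values were seen. The 27 held the AP-1 genes *Jun* and *Fosb*, the survival gene *Bcl2*, the nuclear RNAs *Neat1* and *Kcnq1ot1*, and the splicing genes *Clk1*, *Tra2a* and *Snrnp70*. *Bcl2* was found in 64.9% against 73.0%, while *Mcl1*, another survival gene of the same family, was found in 37.7% against 77.6%.

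The largest differences in this direction were those of *Zcchc10* (33.5% against 82.4%), *Sec62*, a part of the protein translocation machinery (37.3% against 83.5%), *Pafah1b1*, a regulator of the dynein motor (39.0% against 84.9%), *Tmed9*, a cargo receptor of the secretory pathway (40.8% against 86.2%), and *Ctsd*, a lysosomal protease (33.8% against 78.5%). The smallest were those of *Cd226*, *Il2rb*, *Jun* (59.7% against 62.5%), *Klf2* (48.5% against 52.4%) and *H2-D1* (96.1% against 100%). Of the 978 genes, 18 were found in more than 90% of the other ILC2s. They ran from *Srsf5*, a splicing factor, at 60.1% against 90.7%, and the co-chaperone *Dnaja1*, at 61.0% against 93.4%, through the histone gene *H3f3b*, at 78.9% against 99.5%, to *H2-D1*, a class I histocompatibility gene. These 18 were chosen after their values were seen.

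Gene lists were read against the 37.2% of all genes of the table that had a smaller share in subcluster 5. A gene is in the table only if some subcluster listed it, so the number of members counted depends on the listings themselves, and these shares are descriptions. Ubiquitin ligases and proteases, which mark and unmark proteins for turnover, had 21 of 25 members (84.0%) with a smaller share, among them *Huwe1* (31.8% against 62.4%), *Birc6* (36.6% against 69.5%) and *Usp34* (34.0% against 61.2%). The list has 49 genes, of which 24 were not in the table, and 19 of the 21 were in it through subcluster 5 alone. Chromatin regulators had 28 of 38 (73.7%), with a median ratio of 0.499, and 24 of the 28 were listed for no other subcluster. They included the histone methyltransferase gene *Kmt2a* (42.5% against 79.6%), the insulator protein gene *Ctcf* (29.8% against 68.6%), the cohesin subunit gene *Stag2* (20.6% against 51.4%) and the DNA demethylase genes *Tet2* (14.9% against 33.0%) and *Tet3* (19.3% against 35.6%). Splicing factors had 22 of 36 (61.1%), of which 17 were listed for no other subcluster, with a median ratio of 0.682. *Rbm39* was found in 87.9% against 98.9% and *Son* in 83.5% against 93.9%, while *Sf1* was found in 17.3% against 47.5%. Zinc finger genes named Zfp or Zbtb had 14 of 24 (58.3%), of which 13 were listed for no other subcluster, with *Zfp148* at 20.4% against 53.5%.

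**Figure D4:**
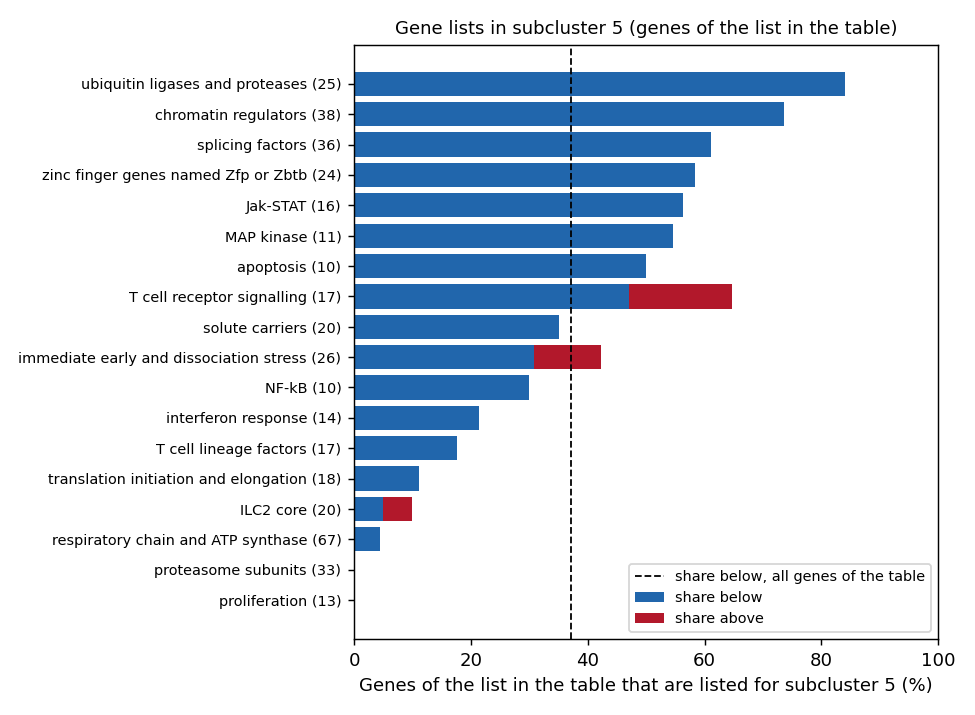
Bars give the percentage of members that were listed for subcluster 5, with a smaller and with a larger share of cells, for each gene list with at least 10 members in the table (number of members in parentheses). The dashed line stands at 37.2%, the share of all genes of the table listed with a smaller share. Ubiquitin genes reach 84.0% and proteasome subunits 0%.

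The signalling and lineage lists had fewer members in the table, and their counts are descriptions. Over all genes of the table, 37.2% had a smaller share and 0.837% a larger one. Of 16 Jak-STAT genes, 9 (56.2%) had a smaller share, among them *Il2rg*, the common cytokine receptor chain (59.0% against 89.0%), *Ifngr1* (30.9% against 61.7%), *Stat5a* (9.2% against 26.5%) and *Stat5b* (10.8% against 28.3%). Of 11 MAP kinase genes, 6 had a smaller share, with *Map4k4* at 35.5% against 64.9%, and of 5 mTOR and PI3K genes, 4 did, with *Pik3r1* at 34.7% against 68.0% and *Gsk3b* at 30.5% against 68.5%. Of 10 apoptosis genes, 5 did. NF-kB genes had 3 of 10 (*Ikbkb*, *Birc2* and *Traf1*) and interferon response genes 3 of 14 (*Gbp7* and *Socs1* among them). Of the members with a smaller share, 4 of the 9 Jak-STAT and 4 of the 6 MAP kinase genes were listed for no other subcluster. The same held for 3 of the 4 mTOR and PI3K genes and 4 of the 5 apoptosis genes. Such genes were in the table through subcluster 5 alone. The NF-kB and interferon response genes with a smaller share were all listed for other subclusters too. Among T lineage factors 3 of 17 (17.6%) had a smaller share, *Ikzf3* (31.1% against 65.9%), *Runx1* (27.6% against 53.8%) and *Notch1* (15.1% against 26.6%), and none had a larger one. Of 8 genes of naive T cells and tissue exit, *Satb1* had a larger share and *Klf2* a smaller one, and *Tcf7*, *Lef1*, *S1pr1*, *Cd27*, *Il7r* and *Igfbp4* were listed for other subclusters only.

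Immediate early and stress genes, which change when tissue is dissociated, had 8 of 26 members (30.8%) with a smaller share, under the 37.2% of all genes, and 3 with a larger one (*Egr1*, *Hspa1a* and *Hspa1b*). The 8 included *Ier2* (44.1% against 79.8%), *Klf6* (68.0% against 88.1%) and *Btg2* (69.9% against 87.2%). Of 7 AP-1 genes, 5 had a smaller share. *Junb* (86.2% against 96.7%), *Jund* (78.5% against 97.3%), *Jun* and *Fosb* (69.3% against 77.0%) had ratios above 0.8, and *Fosl2* was found in 17.3% against 45.6%.

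Several lists had few members listed for subcluster 5. Of 33 proteasome subunits in the table it listed 0, of 13 proliferation genes 0, of 67 genes of the respiratory chain and ATP synthase 3 (4.48%; *Cox10*, *Ndufaf4* and *Ndufs1*), and of 18 translation factors 2 (11.1%; *Eif4a2* at 36.8% against 67.8% and *Eif4g1* at 20.4% against 53.1%). Most members of these lists were in the table through subcluster 4, which listed 30 of the 33, 13 of the 13, 51 of the 67 and 11 of the 18, so their low counts for subcluster 5 say little of it. Of 20 solute carriers it listed 7 (35.0%), near the background, with *Slc38a1*, an amino acid transporter, at 35.8% against 67.8%. Of 5 nuclear long non-coding RNAs it listed 3 with a smaller share, *Neat1* (47.1% against 55.1%), *Kcnq1ot1* (42.8% against 53.8%) and *Snhg12* (21.7% against 39.8%). No ribosomal protein gene, gene of the mitochondrial genome or gene with a predicted or clone name was in the table for any subcluster, so nothing can be said of them.

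Of the 978 genes, 704 were listed for no other subcluster and 274 were also listed elsewhere, in 380 pairs of a gene and a subcluster. Subcluster 0 took part in 101 pairs and subcluster 3 in 83. In subcluster 0 the same gene had a larger share than in the rest in 67 pairs and a smaller share in 33. *Zcchc10* was one of those also listed for subclusters 0, 3 and 9.

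The length of the genes was compared next. For genes with a smaller share, the genomic span in the GENCODE vM21 annotation (GRCm38) had a median of 50.7 kb (quartiles 23.0 and 93.7) over 971 genes, against 16.2 kb (7.04 and 34.9) over the 1617 genes listed only for other subclusters. The 22 genes with a larger share had a median of 10.9 kb (3.89 and 33.3). The longest transcript had a median length of 4.92 kb and the gene a median of 13 exons, against 2.64 kb and 6 exons for genes listed only for other subclusters. Genes found in under 25% of all ILC2s were not compared, and above that the difference was present in the 3 ranges of detection used. Among genes found in 25% to 40% of all ILC2s the median span was 51.6 kb (477 genes) against 19.1 kb (314), between 40% and 60% it was 59.6 kb (293) against 16.3 kb (351), and above 60% it was 34.6 kb (182) against 12.4 kb (515). The genes of the other subclusters differed among themselves. Subcluster 4 had the most, 795 genes with a larger share and a median of 13.2 kb, while the larger-share genes of subclusters 3, 9 and 1 had medians of 27.6 kb, 24.4 kb and 21.8 kb, and all genes of the table had 24.3 kb. In subcluster 3 the 14 genes with a smaller share had a median of 27.2 kb, near that of its other genes. In subcluster 0 the order was the opposite of that in subcluster 5, with a median of 29.5 kb over 190 genes with a larger share and 17.6 kb over 106 genes with a smaller one. Genes are not independent samples, and no test was made.

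**Figure D5:**
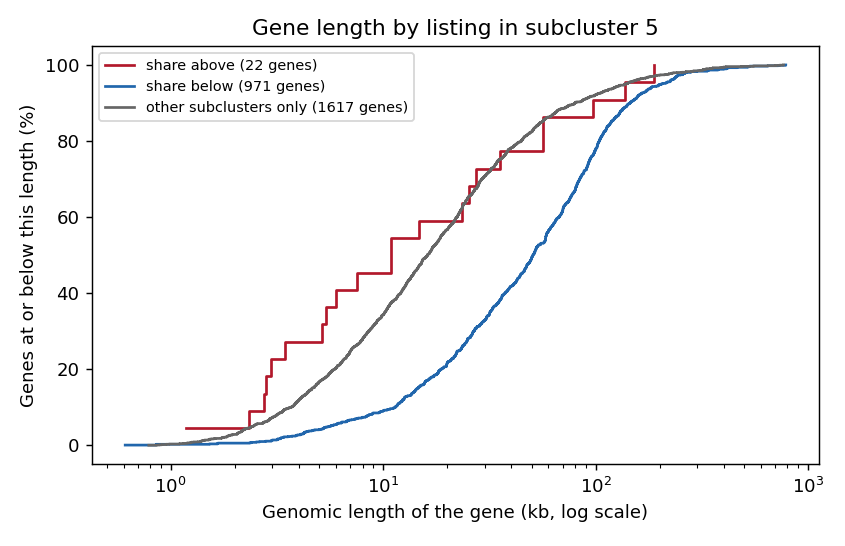
The curves give the percentage of genes at or below each genomic length (in kb, log scale) for genes with a larger share in subcluster 5, genes with a smaller share and genes listed only for other subclusters. The curve of the genes with a smaller share lies to the right, with a median of 50.7 kb against 16.2 kb for genes of the other subclusters.

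The authors also listed genes for 21 cell types among all sorted cells, ILC2s included, in a second table of 4422 listings and 1679 genes. It held 19 of the 22 genes with a larger share. Of these, 16 (84.2% of the 19, and 11.0% of that type's 145 genes) were listed for the type named gdT_TypeI, a type of gamma-delta T cells, against 8.64% of all genes of that table. They were *Cd28*, *Cd3e*, *Cd3g*, *Ctsw*, *Cxcr3*, *Gimap4*, *Il18r1*, *Lck*, *Lyst*, *Ms4a4b*, *Ms4a6b*, *Nkg7*, *Rhob*, *Satb1*, *Trdc* and *Txk*. The type CD8_Naive listed 12 (against 11.8% of all genes of that table), gdT_Naive 12 (8.87%), NK 11 (11.7%), CD8_Effector 10 (5.60%), ILC1 10 (8.64%), CD4 8 (7.80%) and Treg 7 (8.93%). The remaining gamma-delta types listed fewer, gdT_TypeIII_ITGAE 6 (11.7%), gdT_TypeIII_CD163l1 5 (11.4%) and gdT_TypeII 0 (1.67%). Not all of the shared genes had a larger share in the type than outside it. Those that did were 15 of the 16 for gdT_TypeI, 11 for CD8_Naive, 10 for gdT_Naive and 10 for NK. They were 8 for CD8_Effector, 10 for ILC1, 7 for CD4 and 5 for Treg. The type named ILC2 listed 0 and ILC2_2 listed 2 (*Egr1* and *Lck*), both with a smaller share in ILC2_2 than outside it. Lists of T and NK cell types share many genes, so the counts do not point to 1 of them.

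The genes with a smaller share met the second table differently. It held 103 of the 978, and 57 of these (55.3% of the 103, and 28.5% of that type's 200 genes) were listed for ILC2_2, against 11.9% of all genes of that table. Only 14 of the 57 had a larger share in ILC2_2 than in the cells outside it, whereas 94 of the 200 genes listed for ILC2_2 did. Set against all genes, these are 14 of the 103, and 5.60% of the genes of that table. ILC1_ILC3 listed 28 of the 103 (against 13.4% of all genes), gdT_TypeI 27 (8.64%) and ILC2 19 (8.10%). The 27 became 14 when both tables' shares had to differ by at least 5 percentage points. The shares of cells of the second table are on another scale, since *Cd3e* was found in 83.1% of the cells outside the type CD4 there, so its values were not set beside those of subcluster 5.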

How the data were processed

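Cells sorted as ILC2s from liver and lung were sequenced in 4 libraries, 1 per group. The authors aligned reads with Cell Ranger to mm10, removed doublets and dead cells by flow cytometry, excluded immune cells with few genes, scaled the counts of each cell to a common total, log transformed them and clustered the cells in Seurat. No computational doublet call was described for these cells. The deposited tables are marker lists over all libraries together. For each gene and cluster the authors give, to 3 decimals, a first fraction (the cluster's cells that had the gene) and a second one (cells outside it). The larger of both was 25.0% or more in each row. They also give a log2 fold change of average normalized expression, a p-value over cells (its test is not given for these tables in the sources used here) and its adjusted form. These are the authors' own comparisons and were not used. The tables held 0 further columns of numbers for single samples.

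Fractions were written as percentages, and ratios and differences were computed with Python 3.11.15, numpy 2.4.6 and pandas 2.3.3. Least squares gave the subcluster sizes from genes with listings in 2 or more subclusters, a step that was tested on simulated data. Spans and coordinates came from GENCODE vM21 and promoters from RefSeq (GRCm38.p6). In the subcluster table, 2 gene names (1 of them listed for subcluster 5) had been turned into dates by a spreadsheet and were not matched.

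Named genes were every gene with a larger share, the 5 with the largest and the 5 with the smallest difference among those with a smaller share, and members of the 37 gene lists. A planned further group, chosen by fold change, was left out with the column it needed, and other genes are named as chosen after their values were seen or as examples. Members and lists were chosen with earlier results of these data known. The alternatives tried were other limits on the difference between both shares and other fits of the sizes. Cells are not replicates, so no p-value was computed. Some genes are not reported here.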

Additional observations from a re-analysis of the deposited data

How the results depend on the processing

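The 1000 listings, the 978 genes with a smaller share and the solved size stayed within 1.5 times their values under each alternative tried: 987 and 975 listings and 972 and 964 genes when both shares had to differ by at least 5 or 10 percentage points, and sizes of 3.87% from genes listed for at least 3 subclusters and 3.88% with sizes forced to sum to all ILC2s. The 22 genes with a larger share became 15 at 5 points and 11 at 10 points. The 10-point limit was chosen after seeing the data, as were the 5-point limits on cell type overlaps and gene lists. The 16 genes shared with gdT_TypeI became 15 with only larger shares of the cell type table and 13 at 5 points in both tables. The 2 shared with ILC2_2 became 0 and 1. Of the genes with a smaller share, the 27 shared with gdT_TypeI became 23 and 14, and the 57 shared with ILC2_2 became 14 and 50. Of 32 list counts, 29 stayed within 1.5 times their value at 5 points, and 3 went to 0 (*Klf2*, *Gimap4* and *Il18r1*, each alone in its list and direction). Planned limits on the authors' fold change and adjusted p-value were not run, because those columns were not used. No paired analysis was possible because no value was given per library, and a group was 1 library. The tables gave neither depth nor cell numbers. The study reported the total of ILC2s that it clustered again, but this total was not combined with the solved size. No counting interval was therefore given, and small differences between both shares stand without their counting error.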
